A study of Mus musculus with 9 samples.

Results

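The dentate granule cell markers Prox1, C1ql2, C1ql3, Dsp, Lct, Tdo2, Calb1, Dock10 and Il16 were followed across 9 Clariom S Mouse arrays. These 9 genes were taken by symbol, as the platform annotation gives it, from genes known to mark granule cells of the dentate gyrus, out of 19505 named genes and 22206 transcripts measured. Each gene was represented by a single transcript on the array, so that no choice between transcripts arose. The SAMR1 water group (3 arrays) held senescence-resistant SAMR1 mice that drank water. The SAMP8 water group (3 arrays) held mice of the senescence-accelerated SAMP8 strain, also on water. The SAMP8 TFQA group (3 arrays) held SAMP8 mice given 1 mg/kg of TFQA, a tri-feruloylquinic acid, by mouth for 37 days. All mice were males with a labelled age of 6 months. SAMR1 and SAMP8 are separate inbred strains, so that strain background and accelerated ageing cannot be told apart. The study dissected the hippocampus, whereas the sample labels name brain and neural stem cells. Nothing stated that the 3 arrays of a group came from separate mice, and p-values then measure only the spread between arrays, which may be technical.

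Granule cells are the principal excitatory neurons of the dentate gyrus. They receive the input of the hippocampus from the entorhinal cortex and send mossy fibres to the pyramidal cells of CA3. In mice they continue to be born from neural stem cells of the subgranular zone in adult life. The arrays measured RNA of whole tissue, and fewer granule cells or less RNA per granule cell cannot be told apart in these values. All signals are given on the log2 scale, on which 1 unit is a 2-fold difference. Signals of different genes come from different probes and were not compared with each other.

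The promoters of the 4 markers with the lowest log2 fold changes in SAMP8 TFQA vs. SAMP8 water, Prox1, C1ql2, Dsp and Tdo2, are shown first, although no marker passed the adjusted threshold there and all 4 values were nearer to 0 without SAMP8 TFQA 2. RefSeq promoters on GRCm38.p6 were listed for 8 of the 9 markers, all but Calb1. The 250 bases before the start site were at chr1:190170828-190171077 (minus strand) for Prox1, at chr1:120340332-120340581 (plus strand) for C1ql2, at chr13:38151044-38151293 (plus strand) for Dsp and at chr3:81975729-81975978 (minus strand) for Tdo2. Each is written 5′ to 3′ on the strand of its gene. Capitals mark the GC box GGGCGG, the E-box CAGATG that NEUROD1 binds, and the TATA box TATAAA, each on either strand.
Prox1: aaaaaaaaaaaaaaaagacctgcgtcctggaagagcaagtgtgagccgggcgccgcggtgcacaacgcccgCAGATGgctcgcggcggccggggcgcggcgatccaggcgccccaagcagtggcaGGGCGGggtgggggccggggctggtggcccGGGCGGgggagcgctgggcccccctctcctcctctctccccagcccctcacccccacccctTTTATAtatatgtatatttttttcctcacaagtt
C1ql2: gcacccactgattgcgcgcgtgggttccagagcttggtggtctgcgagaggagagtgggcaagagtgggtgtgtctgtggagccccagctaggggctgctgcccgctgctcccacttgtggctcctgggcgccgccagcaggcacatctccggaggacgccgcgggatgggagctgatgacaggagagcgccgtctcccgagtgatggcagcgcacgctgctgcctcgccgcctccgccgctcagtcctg
Dsp: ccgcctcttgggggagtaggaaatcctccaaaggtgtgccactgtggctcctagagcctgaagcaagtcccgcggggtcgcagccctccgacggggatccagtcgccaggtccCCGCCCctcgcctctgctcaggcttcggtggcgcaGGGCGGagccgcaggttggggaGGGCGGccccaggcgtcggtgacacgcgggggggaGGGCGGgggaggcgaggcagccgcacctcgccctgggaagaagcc
Tdo2: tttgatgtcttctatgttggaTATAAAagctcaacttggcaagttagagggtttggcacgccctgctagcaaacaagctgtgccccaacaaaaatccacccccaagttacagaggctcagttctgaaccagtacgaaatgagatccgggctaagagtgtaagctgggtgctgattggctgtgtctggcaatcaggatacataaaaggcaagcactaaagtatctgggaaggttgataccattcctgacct
The Prox1 window held 2 GC boxes, 1 CAGATG and 1 TATA box, and the Dsp window held 4 GC boxes. In the C1ql2 window none of these letters was found, and the Tdo2 window held 1 TATA box. Where a gene had more than 1 listed start, the window of the start nearest its 5′ end was taken. The start used lay 10489 bases from that end for Il16 (3 starts) and 212 bases for Dock10 (2 starts). Over the 8 markers searched, the GC box was in 4 (32.7% of all 32851 promoters of this length, of which a gene can have more than 1). CAGATG was in 3, Prox1, Dock10 and Il16 (14.4% of all), and the TATA box in 2 (12.4% of all). Neither the E-box CAGCTG (13% of all) nor the cAMP response element TGACGTCA (1.5% of all) was in any of the 8, and the same held for its first part TGACG (17.8% of all), which lies within the full element. The windows of Prox1, C1ql2 and Dsp had a GC content of 64.8%, 68.8% and 72.4% with 20, 20 and 22 CpG sites. That of Tdo2 had 46.4% and 3 CpG sites. The median over all promoters was 52.4% and 6 CpG sites. These matches describe the letters of the windows only.

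Marker lists of other cells and regions were read on the same arrays, since the tissue could hold them too. All 12 measured genes of striatal medium spiny neurons were highest in SAMP8 TFQA 2, as were 11.7% of all genes. Their mean deviation from the 9-array mean was 2.95 there, while the other 8 arrays lay between -0.75 and 0.51. Penk, an opioid peptide precursor of these neurons, had a signal of 17.22 in SAMP8 TFQA 2 and of 10.66 to 14.19 elsewhere. Mean deviations of the 10 choroid plexus genes ranged from -0.87 to 0.26 in SAMR1 water, from 0.18 to 0.74 in SAMP8 water and from -0.50 to 0.30 in SAMP8 TFQA. Those of the 10 meningeal fibroblast genes ranged from -0.70 to -0.41 in SAMR1 water and from 0.18 to 0.72 in SAMP8 water. Between the strains, 10 of these 10 genes were higher (47% of all transcripts). An unadjusted p under 0.05 in limma was reached by 8 of them (6.09% of all transcripts). The 7 thalamic genes had mean deviations from -1.04 in SAMR1 water 1 to 1.02 in SAMP8 TFQA 1. Of the 12 neocortical genes, 12 were lower in SAMP8 water vs. SAMR1 water (52.9% of all transcripts). The 8 oligodendrocyte genes were all highest in SAMR1 water 2 (mean deviation 0.80), as were 10.5% of all genes. Results for the granule cell markers are therefore given with and without SAMP8 TFQA 2. The parts of these lists in the results were not tested.

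In SAMP8 water vs. SAMR1 water, 5 markers were higher and 4 lower, with a median log2 fold change of 0.01 against -0.01 over all transcripts, of which 47% were higher and 52.9% lower. None passed a Benjamini-Hochberg adjusted p of 0.05 in limma, a threshold that 0.509% of all transcripts passed, and adjusted p-values of the markers ran from 0.878 to 0.996. None reached the threshold of the study either, a p of less than 0.05 before adjustment together with a change of more than 1.1-fold, which 6.09% of all transcripts reached, and no marker had an unadjusted p under 0.05. The groups overlapped for every marker, whereas 11.8% of all transcripts had groups that did not overlap.

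With TFQA (SAMP8 TFQA vs. SAMP8 water), 8 markers were lower and Calb1 was higher, with a median log2 fold change of -0.32 against 0.01 over all transcripts, of which 48.8% were lower and 50.9% higher. None passed the adjusted threshold in limma (percentage of all transcripts 0), and adjusted p-values ran from 0.654 to 0.979. At an unadjusted p under 0.05, which 7.12% of all transcripts had, 1 marker stood, Tdo2. It was lower and reached the threshold of the study, as did 3.76% of all transcripts on the lower side. The groups did not overlap for Prox1, on the lower side (5.91% of all transcripts), and for Calb1, on the higher side (5.89% of all transcripts). Without SAMP8 TFQA 2, 6 markers were lower and 3 higher, and the median was -0.09.

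**Figure D1:**
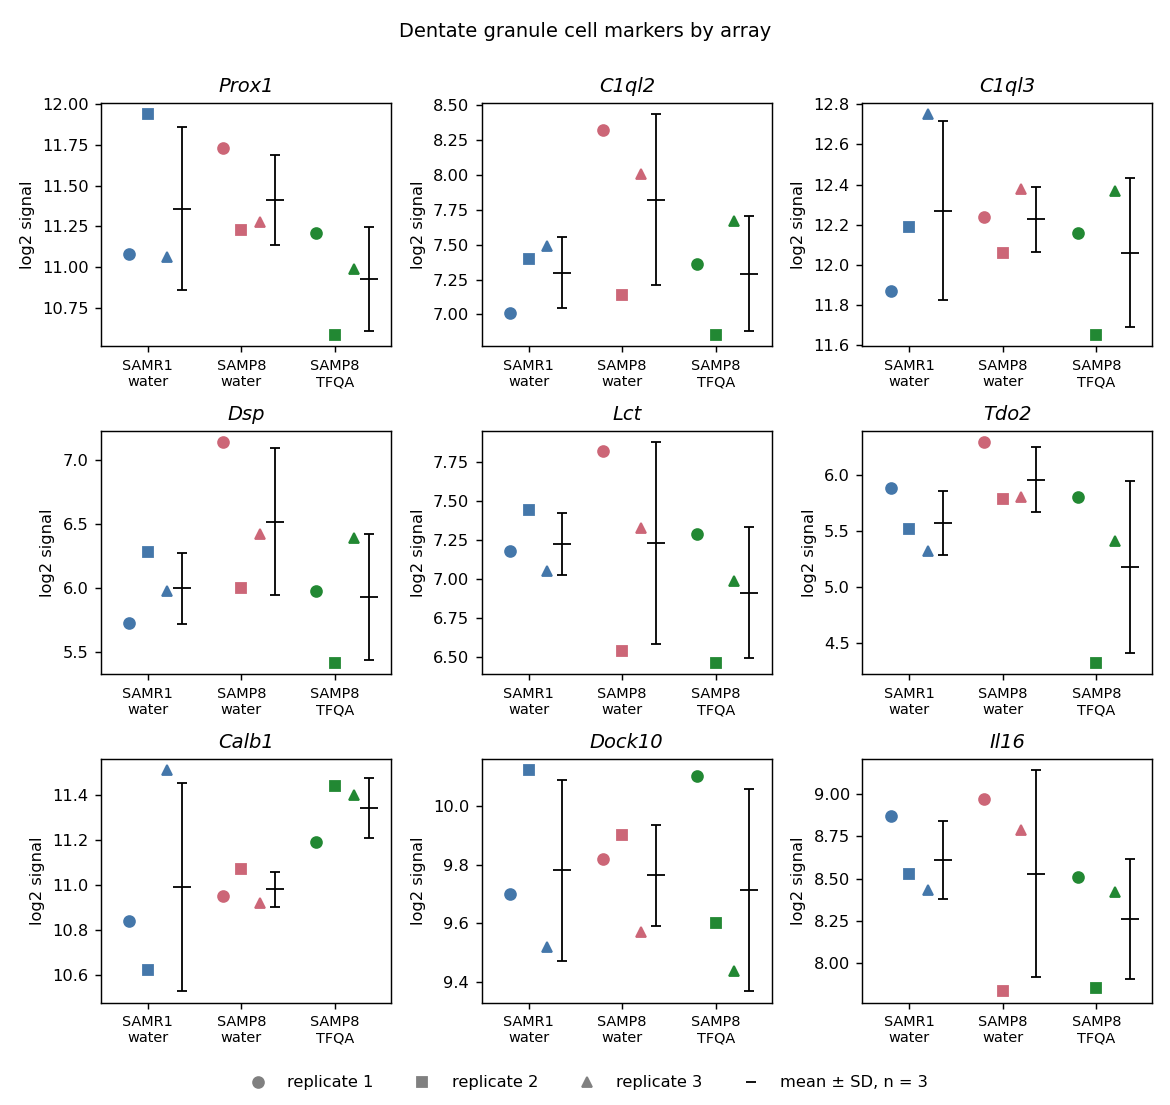
Log2 signals of the 9 markers, 1 panel per gene with its own axis, in the 3 groups (x axis). Symbols are arrays (circle, square and triangle for replicates 1, 2 and 3) and black bars are the mean ± SD of 3 arrays; SAMP8 TFQA 2 is the lowest array for Prox1, C1ql2, C1ql3, Dsp, Lct and Tdo2.

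Prox1 is a homeobox transcription factor that granule cells keep from their birth on and that is needed for their identity. It lies on chr1:190118035-190170827 of GRCm38.p6. Its signals were 11.08, 11.94 and 11.06 in SAMR1 water, 11.73, 11.23 and 11.28 in SAMP8 water, and 11.21, 10.58 and 10.99 in SAMP8 TFQA. All 3 SAMP8 TFQA arrays were below all 3 SAMP8 water arrays, but the highest of them (11.21) was next to the lowest SAMP8 water array (11.23), and SAMR1 water 1 and 3 fell among the SAMP8 TFQA values. The group means were 11.36 ± 0.50, 11.41 ± 0.28 and 10.93 ± 0.32 (SD, n = 3). The log2 fold change was 0.05 (SE 0.26) in SAMP8 water vs. SAMR1 water and -0.49 (SE 0.26, adjusted p = 0.727 in limma) in SAMP8 TFQA vs. SAMP8 water. SAMP8 TFQA 2 held the lowest signal of the 9 arrays, and the latter value was -0.31 without it.

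C1ql2 and C1ql3 are secreted C1q-like proteins that granule cells release at mossy fibre synapses, where they organize kainate receptors of CA3 cells. C1ql2 (chr1:120340582-120343174) had signals of 7.01, 7.40 and 7.49 in SAMR1 water, 8.32, 7.14 and 8.01 in SAMP8 water, and 7.36, 6.85 and 7.67 in SAMP8 TFQA. SAMP8 water 1 and 3 were above every other array, while SAMP8 water 2 was within the range of the other groups. The means were 7.30 ± 0.26, 7.82 ± 0.61 and 7.29 ± 0.41 (SD, n = 3). The log2 fold change of C1ql2 was 0.52 (SE 0.29, adjusted p = 0.878 in limma) between the strains and, with TFQA, -0.53 (SE 0.29, adjusted p = 0.733 in limma). Without SAMP8 water 2 these values were 0.86 and -0.87, with unadjusted p-values of 0.00565 and 0.00539 in limma that did not pass after adjustment, and without SAMP8 water 1 they were 0.28 and -0.28, with 0.377 and 0.366. The value with TFQA was -0.31 without SAMP8 TFQA 2. The SAMP8 water arrays enter both comparisons, and a high or low array there moves them in opposite directions.

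C1ql3 (chr2:13001887-13010864) showed no such pattern. Signals were 11.87, 12.19 and 12.75 in SAMR1 water, 12.24, 12.06 and 12.38 in SAMP8 water, and 12.16, 11.65 and 12.37 in SAMP8 TFQA. The 3 groups overlapped, the highest array was SAMR1 water 3 and the lowest SAMP8 TFQA 2. Log2 fold changes were -0.04 (SE 0.24) between the strains and -0.17 (SE 0.24) with TFQA, and the latter was 0.04 without SAMP8 TFQA 2.

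Dsp, Lct and Tdo2 have their best known roles outside the brain and serve as markers because, within the hippocampus, granule cells express them. Dsp encodes desmoplakin, which ties desmosomes to intermediate filaments in epithelia and heart muscle. On chr13:38151294-38198577, its signals were 5.73, 6.28 and 5.98 in SAMR1 water, 7.14, 6.00 and 6.42 in SAMP8 water, and 5.98, 5.41 and 6.39 in SAMP8 TFQA. SAMP8 water 1 stood above the rest, and the groups overlapped in every comparison. Dsp was higher by 0.52 (SE 0.30, adjusted p = 0.889 in limma) in SAMP8 water vs. SAMR1 water, and its log2 fold change was -0.59 (SE 0.30, adjusted p = 0.72 in limma) in SAMP8 TFQA vs. SAMP8 water. Leaving out SAMP8 water 1 gave 0.21 and -0.28, and leaving out SAMP8 water 2 gave 0.78 and -0.85. The value with TFQA was -0.34 without SAMP8 TFQA 2.

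Lct encodes lactase, the brush border enzyme that splits milk sugar in the small intestine. At chr1:128284756-128328318, signals were 7.18, 7.44 and 7.05 in SAMR1 water, 7.82, 6.54 and 7.33 in SAMP8 water, and 7.29, 6.46 and 6.99 in SAMP8 TFQA. The SAMP8 water arrays alone spanned nearly the whole range of the 9 arrays, from SAMP8 water 1 at the top to SAMP8 water 2 close to SAMP8 TFQA 2 at the bottom. The log2 fold change was 0.01 (SE 0.30) between the strains and -0.32 (SE 0.30, adjusted p = 0.846 in limma) with TFQA. The latter was -0.09 without SAMP8 TFQA 2 and -0.02 without SAMP8 water 1.

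Tdo2 encodes tryptophan 2,3-dioxygenase, which opens the kynurenine pathway of tryptophan breakdown and is best known from liver. It lies on chr3:81958412-81975728. Its signals were 5.88, 5.52 and 5.32 in SAMR1 water, 6.29, 5.78 and 5.80 in SAMP8 water, and 5.80, 4.32 and 5.41 in SAMP8 TFQA. SAMP8 TFQA 2 was 1 unit below the next lowest array, SAMR1 water 3, and SAMP8 TFQA 1 had the same signal as SAMP8 water 3. The means were 5.57 ± 0.28, 5.96 ± 0.29 and 5.18 ± 0.77 (SD, n = 3). Tdo2 had the lowest log2 fold change of the markers in SAMP8 TFQA vs. SAMP8 water, -0.78 (SE 0.32, 95% confidence interval -1.47 to -0.09, unadjusted p = 0.0307 and adjusted p = 0.654 in limma). Without SAMP8 TFQA 2 it was -0.35 with an unadjusted p of 0.158 in limma, and without SAMP8 water 1 it was -0.61 with 0.112. In the former case the count of markers at the threshold of the study went from 1 to 0, and so it did in the latter. Its mean signal lay among the dimmest 40% of the transcripts, and the arrays carried no detection call.

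Calb1 encodes calbindin, the calcium-binding protein of mature granule cells, which other cells, such as CA1 pyramidal cells and some interneurons, also express. It lies on chr4:15881264-15906709. Signals were 10.84, 10.62 and 11.51 in SAMR1 water, 10.95, 11.07 and 10.92 in SAMP8 water, and 11.19, 11.44 and 11.40 in SAMP8 TFQA. All SAMP8 TFQA arrays were above all SAMP8 water arrays, while SAMR1 water held both the lowest and the highest signal. The highest of the SAMP8 TFQA signals, 11.44, was in SAMP8 TFQA 2, the array with the high striatal genes. The next, 11.40, was in SAMP8 TFQA 3, where the mean deviation of the striatal genes was -0.47. The part of other cells was not tested, for Calb1 or for any other marker. The means were 10.99 ± 0.46, 10.98 ± 0.08 and 11.34 ± 0.13 (SD, n = 3). Calb1 was higher by 0.36 (SE 0.21, 95% confidence interval -0.10 to 0.82, adjusted p = 0.746 in limma) in SAMP8 TFQA vs. SAMP8 water, and leaving out any 1 array gave 0.32 to 0.44. Between the strains the log2 fold change was -0.01 (SE 0.21).

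Dock10 encodes a guanine nucleotide exchange factor that activates the small GTPases CDC42 and RAC1 and acts in dendritic spines. Located at chr1:80501068-80758765, it had signals of 9.70, 10.12 and 9.52 in SAMR1 water, 9.82, 9.90 and 9.57 in SAMP8 water, and 10.10, 9.60 and 9.44 in SAMP8 TFQA. Its range over the 9 arrays, 0.68, was the narrowest of the markers, and each group held high and low arrays. Log2 fold changes were -0.02 (SE 0.21) between the strains and -0.05 (SE 0.21, 95% confidence interval -0.51 to 0.41) with TFQA.

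Il16 encodes pro-interleukin-16, a PDZ domain protein of which the end is released as a cytokine that binds CD4 and of which neurons make a longer form. On chr7:83642819-83746028, signals were 8.87, 8.53 and 8.43 in SAMR1 water, 8.97, 7.83 and 8.79 in SAMP8 water, and 8.51, 7.85 and 8.42 in SAMP8 TFQA. SAMP8 water 2 and SAMP8 TFQA 2 were both well below the other 7 arrays. Il16 differed by -0.08 (SE 0.28) between the strains and by -0.27 (SE 0.28, adjusted p = 0.862 in limma) with TFQA, and by -0.07 with TFQA once SAMP8 TFQA 2 was left out.

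**Figure D2:**
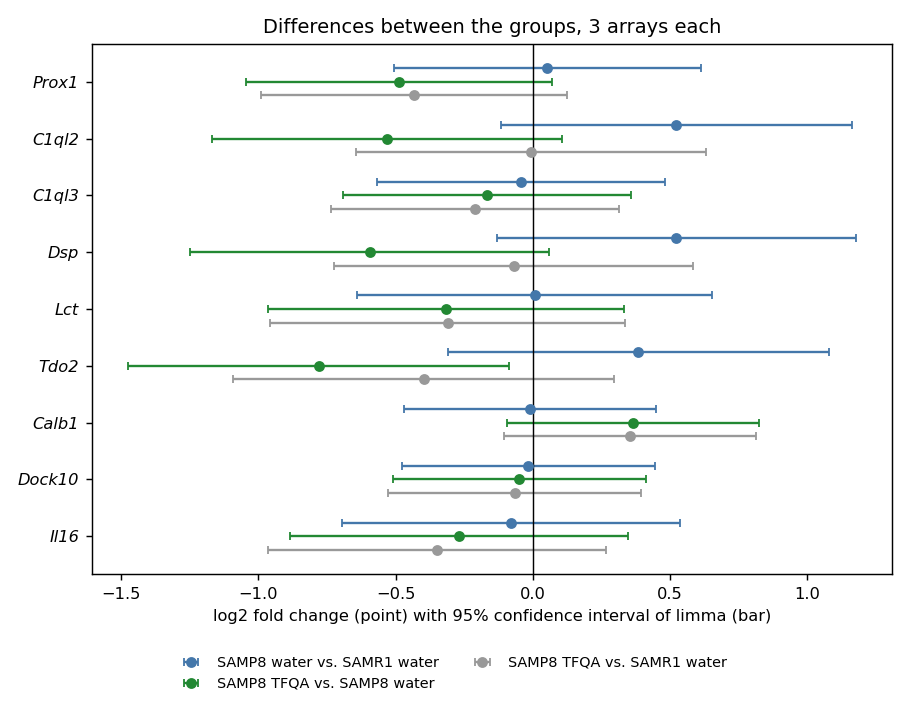
Log2 fold change (x axis) of each marker (y axis) in the 3 comparisons, with the 95% confidence interval of limma as a bar. Every interval includes 0 except that of Tdo2 in SAMP8 TFQA vs. SAMP8 water (-1.47 to -0.09).

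SAMP8 TFQA was also set against SAMR1 water, to see on which side of the resistant strain the treated mice lay. Here 8 markers were lower and Calb1 was higher, with a median of -0.21 against -0.01 over all transcripts, of which 51.7% were lower and 48.2% higher. None passed the adjusted threshold, which 0.576% of all transcripts passed, and none had an unadjusted p under 0.05 or reached the threshold of the study (8.06% of all transcripts). The groups overlapped for all 9 (no overlap for 12.3% of all transcripts). The lowest value was that of Prox1, -0.43 (SE 0.26), followed by Tdo2 with -0.40, Il16 with -0.35 and Lct with -0.31. C1ql2 and Dsp were close to SAMR1 water, at -0.01 (95% confidence interval -0.64 to 0.63) and -0.07 (-0.72 to 0.58). Intervals of this width do not show that the groups were equal. Without SAMP8 TFQA 2, 5 markers were lower and 4 higher and the median was -0.005.

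The markers varied more between arrays of a group than most transcripts. Their residual SDs ran from 0.28 for Calb1 to 0.50 for Tdo2, against a median of 0.235 over all transcripts, and the SD of Tdo2 exceeded that of 96.9% of them. Averaged over the 9 genes, the deviation from the 9-array mean was -0.10, 0.11 and 0.01 in SAMR1 water, 0.47, -0.17 and 0.16 in SAMP8 water, and 0.06, -0.54 and 0.00 in SAMP8 TFQA. SAMP8 water 1 and SAMP8 TFQA 2 were therefore the extremes, and the other 7 arrays lay between -0.17 and 0.16. SAMP8 water 1 held the highest signal of 5 markers (8.9% of all genes were highest there), and SAMP8 TFQA 2 the lowest of 6 markers (11.8% of all genes). SAMP8 TFQA 2 was the array with the high striatal genes.

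**Figure D3:**
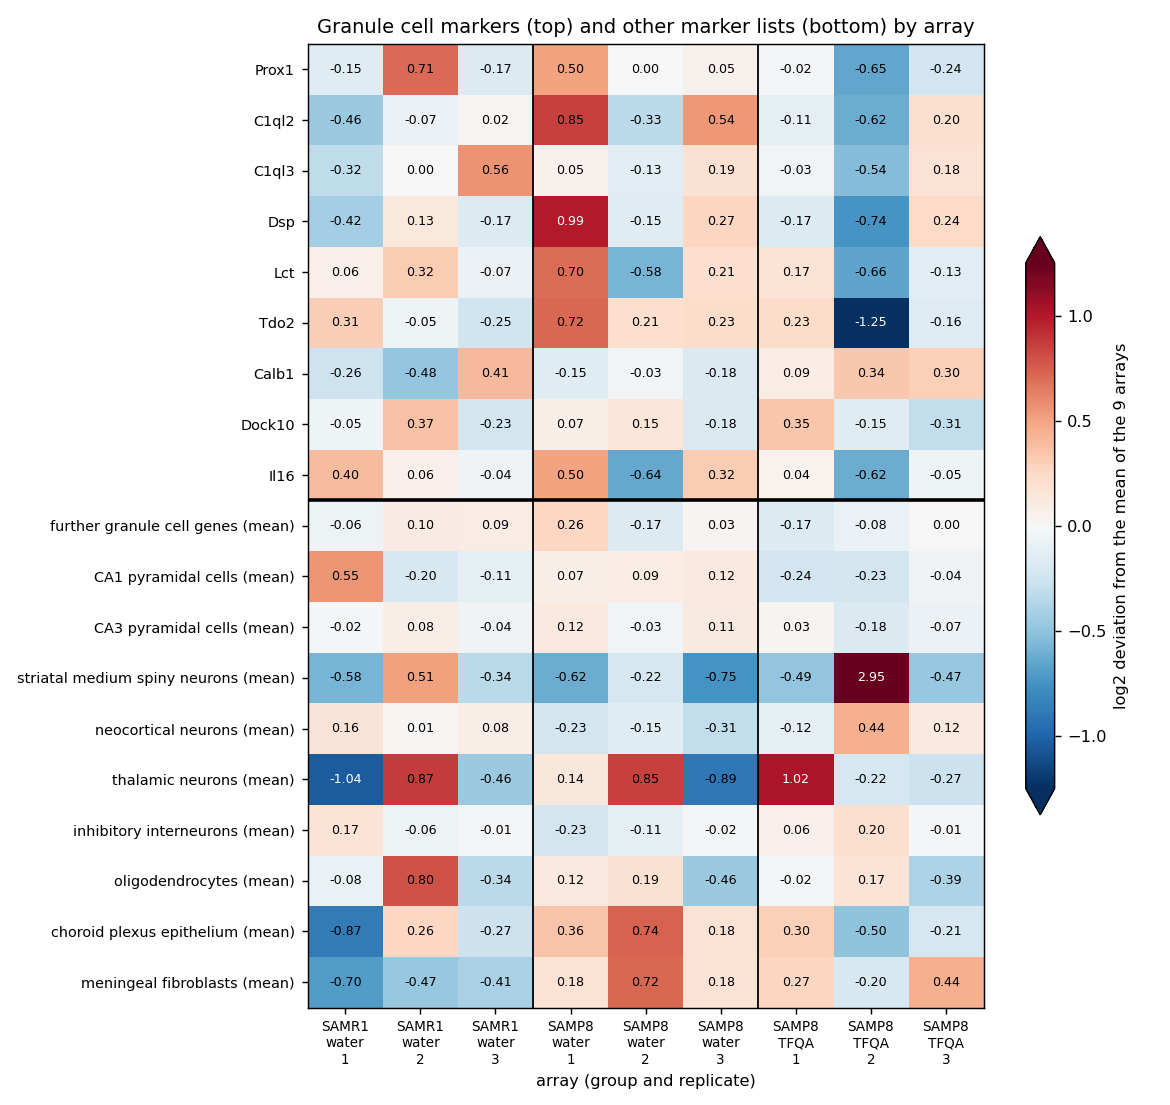
Log2 deviation from the 9-array mean (colour and printed value) for each marker and, below the line, for the mean of other marker lists (rows), by array (columns). SAMP8 TFQA 2 holds values below 0 for 8 of the 9 markers and the high striatal mean of 2.95.

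Over the 9 arrays, 27 of the 36 pairs of markers had a Pearson r above 0 (75%, against 50.1% of all pairs of genes) and 7 had an r above 0.7 (19.4% against 2.1%). The points share arrays, groups and normalization, and the values are a description. The highest were C1ql2 with Dsp, at 0.941, and Lct with Il16, at 0.906. Without SAMP8 TFQA 2 these pairs had 0.922 and 0.86, whereas the median of the 36 pairs went from 0.44 to 0.28. Within groups, with each group mean taken off, the median was 0.43. Calb1 ran the other way, with an r below 0 for 7 of its 8 pairs, from -0.771 with Prox1 to 0.187 with C1ql3. Dock10 was close to 0 with Il16 (0.019) and with Dsp (0.086). Of the C1ql2 and Dsp pair, the Dsp window printed above held 4 GC boxes and that of C1ql2 none.

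**Figure D4:**
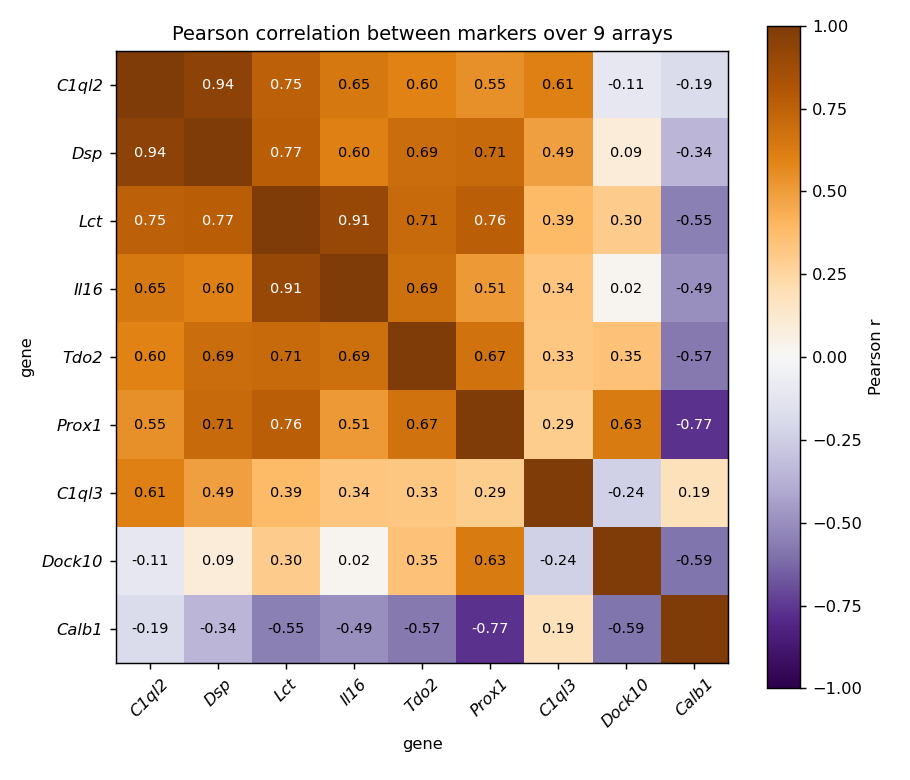
Pearson r between the log2 signals of each pair of markers over 9 arrays (colour and printed value, genes on both axes). C1ql2, Dsp, Lct, Il16, Tdo2 and Prox1 have values above 0 with each other, and Calb1 has values below 0 with all but C1ql3.

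Among the named genes outside the list, those whose signals followed the mean of the 9 markers most closely over the 9 arrays were Fyco1 (r = 0.966), Catsper2 (0.941), Ahcyl2 (0.936), Supt6 (0.931) and Tbx19 (0.928). Most like Tdo2 was Rbm28 (0.987), most like C1ql3 was Ces1c (0.965) and most like Prox1 was Fut8 (0.938). With 9 arrays and this many genes, high values arise for any pattern. For 15 further genes known from granule cells, 7 were higher and 8 lower in SAMP8 water vs. SAMR1 water, and 5 higher and 10 lower with TFQA, where the median was -0.17 with all arrays and -0.16 without SAMP8 TFQA 2. None passed the adjusted threshold. Kcnk1, a two-pore potassium channel, was at 10.68, 10.65 and 10.55 in SAMR1 water, 11.30, 11.09 and 11.12 in SAMP8 water, and 11.24, 11.58 and 11.05 in SAMP8 TFQA. Both SAMP8 groups were above SAMR1 water on every array, with 0.54 (SE 0.17, adjusted p = 0.417 in limma) between the strains. Of all transcripts, 11.8% had no overlap of SAMP8 water with SAMR1 water, and 12.3% none of SAMP8 TFQA with SAMR1 water. Stxbp6, a binder of the SNARE machinery, was at 12.58, 12.91 and 12.82, at 13.02, 12.56 and 12.78, and at 12.33, 12.49 and 12.26 in the same order of groups. SAMP8 TFQA was the lowest group on every array, with -0.43 (SE 0.17, adjusted p = 0.637 in limma) against SAMP8 water, where 5.91% of all transcripts were lower without overlap.

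Neighbouring cell types of the hippocampus were counted in the same way, and no gene passed the adjusted threshold in either main comparison. Of 9 genes of newborn and immature granule cells, 3 were higher and 6 lower between the strains and 4 higher and 5 lower with TFQA, with medians of -0.03 in both. Of 9 CA1 genes, 2 were higher and 7 lower with TFQA (median -0.17, and without SAMP8 TFQA 2 also 7 lower with a median of -0.17). Of them, 2 reached the threshold of the study on the lower side, as did 3.76% of all transcripts. These were Nr4a1, an activity-induced nuclear receptor, with -0.92 and Fibcd1 with -0.91 (adjusted p = 0.561 for both in limma). Of 9 CA3 genes, 3 were higher and 6 lower with TFQA, with a median of -0.26 and of -0.03 without SAMP8 TFQA 2. Of 5 CA2 genes, 2 were higher and 3 lower with TFQA, with a median of -0.27 and of -0.005 without SAMP8 TFQA 2. Of 4 hilar mossy cell genes, 2 were higher and 2 lower (median -0.09). The interneuron and neocortical genes were mostly higher instead. With TFQA, 11 of 12 interneuron genes were higher (median 0.22, and 10 of 12 without SAMP8 TFQA 2). So were 9 of 12 neocortical genes (median 0.47, and 8 of 12 without that array). Of all transcripts, 50.9% were higher and 48.8% lower with TFQA. The interneuron gene with the smallest p, Adarb2, was lower instead, at -0.54 (SE 0.17, adjusted p = 0.561 in limma). Its groups did not overlap (5.91% of all transcripts on the lower side). Between the strains, 9 interneuron and 12 neocortical genes were lower (medians -0.25 and -0.28, with 52.9% of all transcripts lower), and SAMP8 water enters both comparisons. Against SAMR1 water, the medians with TFQA were 0.05 and -0.04. Whether the markers differed from these lists was not tested.

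The partners of the markers were followed next, and again none passed the adjusted threshold in either main comparison. Among 12 mossy fibre synapse organizers and kainate receptors, 3 were higher and 9 lower between the strains and 7 higher and 5 lower with TFQA. Nrxn3, a presynaptic neurexin to which C1ql proteins bind, had signals of 12.16, 12.28 and 12.21 in SAMR1 water, 11.67, 11.84 and 11.98 in SAMP8 water, and 12.11, 12.24 and 12.13 in SAMP8 TFQA. SAMP8 water was the lowest group without overlap. No overlap in either direction held for 11.8% of all transcripts in each of these comparisons, and on the higher side with TFQA for 5.89%. The same SAMP8 water arrays enter both comparisons, and low values there move them in opposite directions. Log2 fold changes were -0.39 (SE 0.15, adjusted p = 0.632 in limma) between the strains and 0.33 (SE 0.15, adjusted p = 0.684 in limma) with TFQA. C1ql2 had its highest mean in SAMP8 water, and a link with Nrxn3 was not tested.

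Among 11 desmosome and plakin genes, the partners of Dsp, 5 were higher and 6 lower between the strains, with medians of -0.03 there and -0.02 with TFQA. Perp, a desmosomal membrane protein, was at 0.58 and the plakoglobin gene Jup at -0.48 between the strains, both at the threshold of the study, as were 6.09% of all transcripts (adjusted p = 0.523 and 0.73 in limma). Among 11 genes that act on tryptophan or its products, 7 were higher and 4 lower with TFQA. The list holds genes of the kynurenine pathway, which Tdo2 opens, and the tryptophan hydroxylases Tph1 and Tph2, which are outside that pathway. The threshold of the study was reached by 2 genes, both lower (3.76% of all transcripts). They were Afmid, the next enzyme after Tdo2 in the kynurenine pathway, with -0.73 (SE 0.23, adjusted p = 0.561 in limma), and Tph2, the serotonin-forming tryptophan hydroxylase of raphe neurons, with -0.68 (SE 0.24, adjusted p = 0.592 in limma). Afmid was at 6.19, 5.81 and 6.04 in SAMP8 water and 4.68, 5.54 and 5.63 in SAMP8 TFQA, and its lowest array was SAMP8 TFQA 1, not the array in which Tdo2 was lowest.

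Of 9 calcium buffers, 5 were higher and 4 lower with TFQA, and Calb2, the calretinin gene, was at -0.61 (SE 0.37) where Calb1 was at 0.36. Calb2 is also in the lists of newborn and immature granule cells, hilar mossy cells and thalamic neurons. Other genes, such as Neurod1, Grik4 and Pvalb, stand in more than 1 list too, so that the counts of the lists are not independent. Among 6 relatives and GTPases of Dock10, 3 were higher and 3 lower with TFQA. Dock9 was at -0.59 (SE 0.26, adjusted p = 0.679 in limma) and Cdc42 at 0.32 (SE 0.15). Of 5 genes around Il16, 3 were higher and 2 lower with TFQA, and between the strains 1 reached the threshold of the study (6.09% of all transcripts). This was the tetraspanin gene Cd9, at 0.55 (SE 0.24, adjusted p = 0.781 in limma) with overlapping groups. Kcnj10, a potassium channel gene, was at -0.30 (SE 0.15) without overlap (11.8% of all transcripts), and Cd4, which encodes the receptor of the cytokine, at 0.41 (SE 0.23). Among 7 partners of Prox1, 5 were higher and 1 lower with TFQA. Lef1, a mediator of Wnt signals, was at 0.60 (SE 0.42). Lef1 and Tcf7l2 are also in the thalamic list, and the mean deviations of both lists were low in SAMR1 water 1 (-0.45 for the partners and -1.04 for the thalamic genes) and SAMP8 water 3 (-0.70 and -0.89) and high in SAMP8 TFQA 1 (0.38 and 1.02). The part of the thalamic genes was not tested. Among 5 other hydrolases of the kind of Lct, 3 were higher and 2 lower with TFQA.

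**Figure D5:**
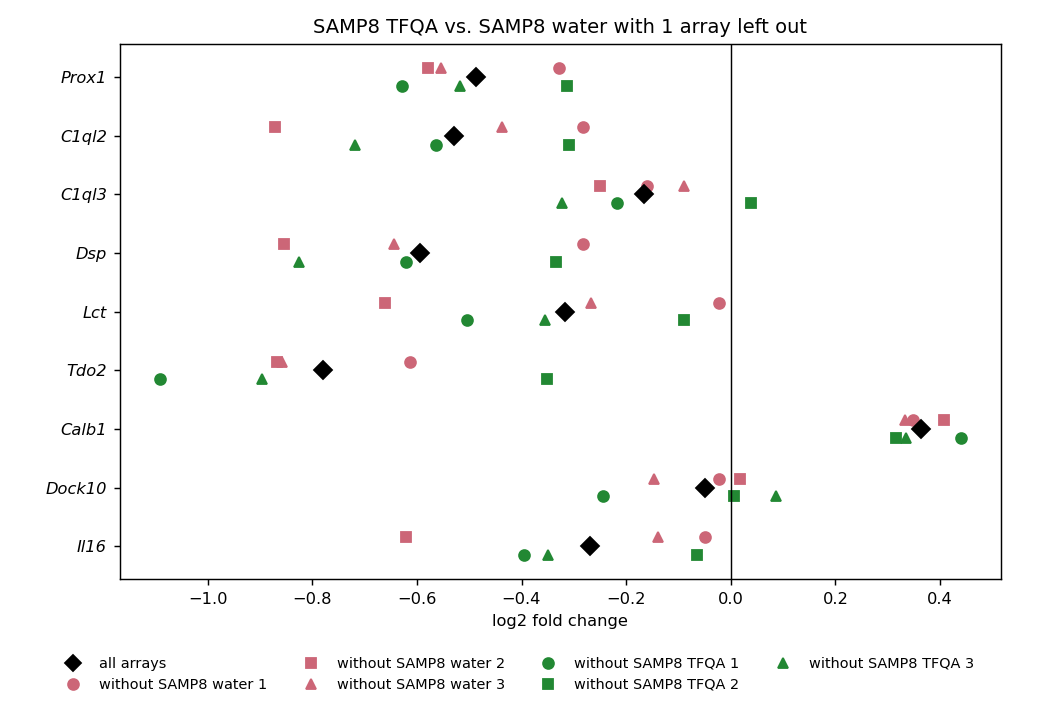
Log2 fold change (x axis) of each marker (y axis) in SAMP8 TFQA vs. SAMP8 water with all arrays (diamond) and with 1 array of these groups left out (coloured symbols). Without SAMP8 TFQA 2 the values of Tdo2, Prox1, C1ql2 and Dsp move towards 0, to between -0.35 and -0.31, and C1ql3 and Dock10 pass to the higher side.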

How the data were processed

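Per the study's methods, cDNA made from the RNA was hybridised to Clariom S Mouse arrays, while the labels name biotinylated cRNA. The deposited values are log2 signals that the authors made in the Transcriptome Analysis Console by SST-RMA (background correction, normalization between arrays, 1 value per transcript); the submitters' processing notes name RMA and mm10. Of 22206 transcripts, 19572 had 1 symbol and 2634 none in the platform annotation. Array medians were 6.76 to 6.81 and correlations between arrays 0.9876 to 0.9934. The number of arrays limits the precision (median SE 0.190).

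In R 4.3.3, limma 3.58.1 (lmFit, eBayes) was fitted to all transcripts over 9 arrays, with Benjamini-Hochberg adjustment over 22206 transcripts. No filter was applied. In simulated data for SAMP8 TFQA vs. SAMP8 water with all 22206 transcripts, 55 of 100 log2 differences of 1 and 96 of 100 of 2 passed the adjusted threshold. The simulated noise was independent for each transcript, without shifts of a whole array. Both sizes were larger than the largest marker difference in that comparison (Tdo2, -0.78), so these rates do not apply to the markers. Promoter and gene positions were those of RefSeq on GRCm38.p6. The members and gene lists were chosen with earlier results of these data known. Besides the markers, genes named were up to 3 of each list with the smallest p and those most correlated with the markers. The choice of Penk, and of which listed genes to print for each array, was made after their values had been seen. Alternatives were 2-group fits, a replicate block, other eBayes settings, normalizations, filters, array weights and leaving out each array.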

Additional observations from a re-analysis of the deposited data

How the results depend on the processing

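No marker passed the adjusted threshold in limma under any alternative (lowest adjusted p 0.353). Across alternatives, 33 of 483 fold changes turned sign, 29 of them on leaving out 1 array. In SAMP8 water vs. SAMR1 water, second quantile normalization gave C1ql3 0.0072 and Calb1 0.0265, and centring gave Lct -0.0167. In SAMP8 TFQA vs. SAMR1 water, array weights gave C1ql2 0.0013.

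The count at the threshold of the study in SAMP8 TFQA vs. SAMP8 water, 1, was 3 in a fit of these 2 groups (Prox1, Tdo2 and Calb1; 6.72% of all transcripts) and 0 by one-way ANOVA without moderation (6.63%) or without the dimmest 40%, which leaves out Tdo2. Leaving out 1 array gave 0 to 5, where 5.75% to 8.29% of all transcripts reached it. It was 0 without SAMP8 TFQA 2 (7.46%) or SAMP8 water 1 (5.75%), 2 without SAMR1 water 2 (7.02%) or SAMR1 water 3 (6.86%), 3 without SAMP8 TFQA 3 (8.29%), and 5 without SAMP8 water 2 (6.42%; C1ql2, Dsp, Lct, Tdo2 and Il16). The range was 0 to 2 between the strains, with C1ql2 and Dsp past it without SAMP8 water 2 (5.43%), and 0 to 1 in SAMP8 TFQA vs. SAMR1 water, with Calb1 past it without SAMR1 water 3 (7.29%) and Tdo2 without SAMP8 TFQA 1 (7.75%). The median over the markers ran from -0.045 to 0.27, from -0.62 to -0.09 and from -0.35 to -0.005.

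Ranges that crossed 0 on leaving out 1 array were, between the strains, Prox1 -0.11 to 0.34, C1ql3 -0.24 to 0.20, Lct -0.29 to 0.35, Calb1 -0.20 to 0.25, Dock10 -0.15 to 0.15 and Il16 -0.30 to 0.27. In SAMP8 TFQA vs. SAMP8 water they were C1ql3 -0.32 to 0.0383 and Dock10 -0.24 to 0.0867. In SAMP8 TFQA vs. SAMR1 water they were C1ql2 -0.20 to 0.21, C1ql3 -0.41 to 0.03, Dsp -0.30 to 0.19, Tdo2 -0.71 to 0.0317 and Dock10 -0.26 to 0.10. The cause was not tested.

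Deviations of same-numbered arrays of different groups correlated at 0 to 0.153, 8 of 9 pairs at no more than 0.1. Those of differently numbered arrays correlated at -0.113 to 0.069. Whether arrays of the same number share a batch was not tested. With a replicate block, the counts at the threshold of the study stayed 0, 1 and 0 (6.67%, 7.92% and 8.68% of all transcripts). Tdo2 then had an unadjusted p of 0.00877 and an adjusted p of 0.517 in limma. Leaving SAMP8 TFQA 2 out of the other gene lists was chosen after seeing the data.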

Other observations

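Genes within 1 Mb of each marker were counted, since SAMP8 and SAMR1 differ in their genomes. There were 5 (Dock10) to 15 (Prox1, C1ql2) such neighbours, and none passed the adjusted threshold in limma in any comparison. Beside Tdo2, Npy2r, a receptor of neuropeptide Y, had a log2 fold change of -0.92 (SE 0.26, adjusted p = 0.561 in limma) in SAMP8 TFQA vs. SAMP8 water. Beside Dsp, Ly86 was higher by 0.60 (SE 0.18, adjusted p = 0.373 in limma) and Bmp6, a bone morphogenetic protein, by 0.47 (SE 0.20, adjusted p = 0.751 in limma) in SAMP8 water vs. SAMR1 water. Beside C1ql2, Inhbb, a subunit of activins, had -0.47 (SE 0.15, adjusted p = 0.561 in limma) in SAMP8 TFQA vs. SAMP8 water. Some neighbours went the other way from their marker in SAMP8 TFQA vs. SAMP8 water. Zranb3, near Lct (-0.32), was higher by 0.83 (SE 0.25, adjusted p = 0.561 in limma). Rps6kc1, near Prox1 (-0.49), was higher by 0.69 (SE 0.21, adjusted p = 0.561 in limma). All neighbours named here were chosen after their values were seen.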
